A study of Mus musculus with 12 samples.

Results

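The 8 genes described here carry out and regulate iron handling in the intestinal epithelium: Slc11a2, Cybrd1, Slc40a1, Heph, Tfrc, Fth1, Ftl1 and Epas1. They were chosen by name, under a rule that uses no measured value but was set with earlier results of these data known, from the 46078 Ensembl genes listed in the count files, and their symbols were taken from the GENCODE M21 annotation. All 8 passed the filter on low counts. RNA was measured in epithelium scraped from the proximal ileum of male C57BL/6 mice that had been gavaged with sesame oil vehicle or with 3, 10 or 30 µg/kg the dioxin TCDD, a persistent ligand of the aryl hydrocarbon receptor (AhR). The animals were dosed 7 times at intervals of 4 days, between 28 and 56 days of age, and each dose had 3 biological replicates, which gave 12 libraries. The labels give no replicate numbers, so replicates 1 to 3 of each dose are named here in the order of deposit.

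Dietary iron is reduced at the brush border by the ferric reductase Cybrd1 and carried into the enterocyte by Slc11a2 (DMT1). It then leaves through the basolateral exporter Slc40a1 (ferroportin) with the help of the ferroxidase Heph (hephaestin), or is stored in ferritin, a shell of Fth1 heavy and Ftl1 light chains. Tfrc, the transferrin receptor, brings in iron from the blood side, and Epas1 encodes HIF-2α, a transcription factor that is known to drive the intestinal absorption genes when oxygen or iron is low. Iron regulatory proteins add a control at the level of RNA: when iron is low they bind a short hairpin, the iron-responsive element, which blocks translation where the hairpin lies in a 5′ untranslated region (UTR) and protects the mRNA where it lies in a 3′ UTR. Control of translation of this kind is not seen by counts of mRNA.

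The hairpins of 4 of the genes are shown because they place these genes in the same regulatory circuit in opposite ways. The GENCODE M21 protein-coding transcripts were searched on the sense strand for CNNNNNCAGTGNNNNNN, in which the 5 bases before CAGTG had to pair with the last 5 bases (G-T pairs allowed) and the base after CAGTG could be A, C or T. Each site is printed 5′ to 3′ as DNA with 6 bases on either side, and the loop is in capitals. Positions are those of build GRCm38.

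Fth1, 5′ UTR, chr19:9982732-9982760, plus strand: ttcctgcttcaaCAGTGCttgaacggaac

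Ftl1, 5′ UTR, chr7:45459779-45459807, minus strand: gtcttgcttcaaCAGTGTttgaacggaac

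Slc40a1, 5′ UTR, chr1:45925465-45925493, minus strand: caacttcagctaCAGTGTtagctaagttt

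Tfrc, 3′ UTR, chr16:32631219-32631247, plus strand: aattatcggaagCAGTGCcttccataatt

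Tfrc, 3′ UTR, chr16:32631598-32631626, plus strand: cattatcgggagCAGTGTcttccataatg

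Tfrc, 3′ UTR, chr16:32631663-32631691, plus strand: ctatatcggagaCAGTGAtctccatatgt

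Tfrc, 3′ UTR, chr16:32631710-32631738, plus strand: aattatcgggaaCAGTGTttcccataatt

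The pattern occurred in a 5′ UTR of 23 of the 21200 genes that have one (0.108%) and in a 3′ UTR of 110 of 21193 (0.519%). It was present in 4 of 5 annotated coding transcripts of Fth1, in 2 of 3 of Ftl1, in 1 of 4 of Slc40a1 and in 1 of 3 of Tfrc. A match describes the sequence and is not a measurement of binding, and the counts here are per gene, so transcripts with and without a hairpin were not separated. The pattern is strict, and a hairpin with another loop or with a mismatch or bulge in its stem would be missed. The lack of a match in Slc11a2, Cybrd1, Heph and Epas1 therefore does not show that they lack such an element.

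The gene totals of the 12 libraries were between 11695887 and 22180274 counts, so that a floor of 3 counts equals 0.135 to 0.257 counts per 1000000 of these unscaled totals. CPM here are counts per 1000000 counts of library size, the latter scaled by TMM, the trimmed mean of M values. The floor in CPM therefore differs slightly from that range. Such floors cover counting error only. Enterocyte markers summed to between 21700 and 35300 CPM across the 12 libraries, with all 7 present. The distal ileal list (4 genes), by contrast, differed between groups: it summed to 1160 to 1510 CPM in vehicle, 464 to 1830 at 3 µg/kg, 216 to 751 at 10 µg/kg and 195 to 426 at 30 µg/kg. Cubn alone measured 1110 to 1450 CPM in vehicle and 158 to 385 CPM at 30 µg/kg. The sums of the list thus largely followed this 1 gene, which fell in the dose trend by 2.23 on the log2 scale (SE 0.53, edgeR adjusted p 0.0274). At 30 µg/kg against vehicle Cubn was called by limma-voom but not by edgeR (−2.08, SE 0.6, edgeR adjusted p 0.0622). The paper that reported these data describes Cubn as repressed by TCDD in this segment. Fabp6, also of the distal ileal list, was called higher by edgeR at 3 µg/kg, at 22.9 to 38.3 CPM against at most 0.0926 CPM in vehicle. DESeq2 called 2 genes of that list higher at this dose, Fabp6 and Slc10a2, and limma-voom called Fabp6 only. The duodenal or proximal list (5 genes) summed to 4070 to 4190 CPM in vehicle and 2990 to 4970 at 3 µg/kg. It summed to 3500 to 3690 at 10 µg/kg and 3230 to 3890 at 30 µg/kg, both below vehicle without overlap. At each dose edgeR called 0 of its 4 tested genes against vehicle. Of these 4, 2 were higher and 2 lower at each dose, with median log2 changes of 0.07, 0.12 and −0.01 in dose order. The lower sums at 10 and 30 µg/kg were thus not shared by all genes of the list. The part of these 2 regional lists in the iron genes' values was not tested. The AhR target Cyp1a1, which checks the exposure, measured 19 to 27.5 CPM in vehicle and rose at 30 µg/kg by 7.01 on the log2 scale (SE 0.57; edgeR quasi-likelihood test with Benjamini-Hochberg adjustment, adjusted p 2.31e-05) and at 10 µg/kg by 5.54 (SE 0.53; adjusted p 0.000222). At 3 µg/kg Cyp1a1 was not called by edgeR (1.74, SE 0.46, adjusted p 0.208), and its libraries at 22.2 to 141 CPM overlapped with vehicle. Cyp1b1 lay above vehicle there, at 3.17 to 5.2 against 1.35 to 2.64 CPM, but was not called (0.86, SE 0.23, edgeR adjusted p 0.221). DESeq2 called Cyp1a1 and Cyp1b1 higher at that dose. Cyp1a2 was called lower, with 0 counts in all 3 libraries against 15 to 50 in vehicle (edgeR adjusted p 0.00824). The check of exposure was thus mixed at the lowest dose. The pancreatic acinar list (5 genes) summed to between 4.17 and 5.18 CPM in vehicle and at most 1.59 CPM in the treated libraries. Dates or pools of sequencing do not appear in the labels, and any batch aligned with dose could not be told apart from it.

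Levels are compared between genes per kilobase of exon. In vehicle the ferritin genes were highest, with Ftl1 at 116 ± 7.59 CPM per kb (SD, n = 3) and Fth1 at 112 ± 21.5, and the ranges of these 2 genes overlapped. Heph followed at 65.2 ± 1.4 CPM per kb, below both ferritins and above all the others. Tfrc (14.8 ± 2.89), Epas1 (12.5 ± 1.82) and Slc11a2 (10.3 ± 1.48) came next, and the ranges of neighbours in this order overlapped. Slc40a1 at 0.879 ± 0.12 CPM per kb and Cybrd1 at 0.417 ± 0.188 were the lowest, in non-overlapping ranges. The ferroxidase was thus present in vehicle at a far higher RNA level than the exporter it serves. The length used is that of all annotated exons of a gene joined, which is longer than any 1 transcript where exons differ between isoforms, so these levels rank the genes only roughly.

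**Figure D1:**
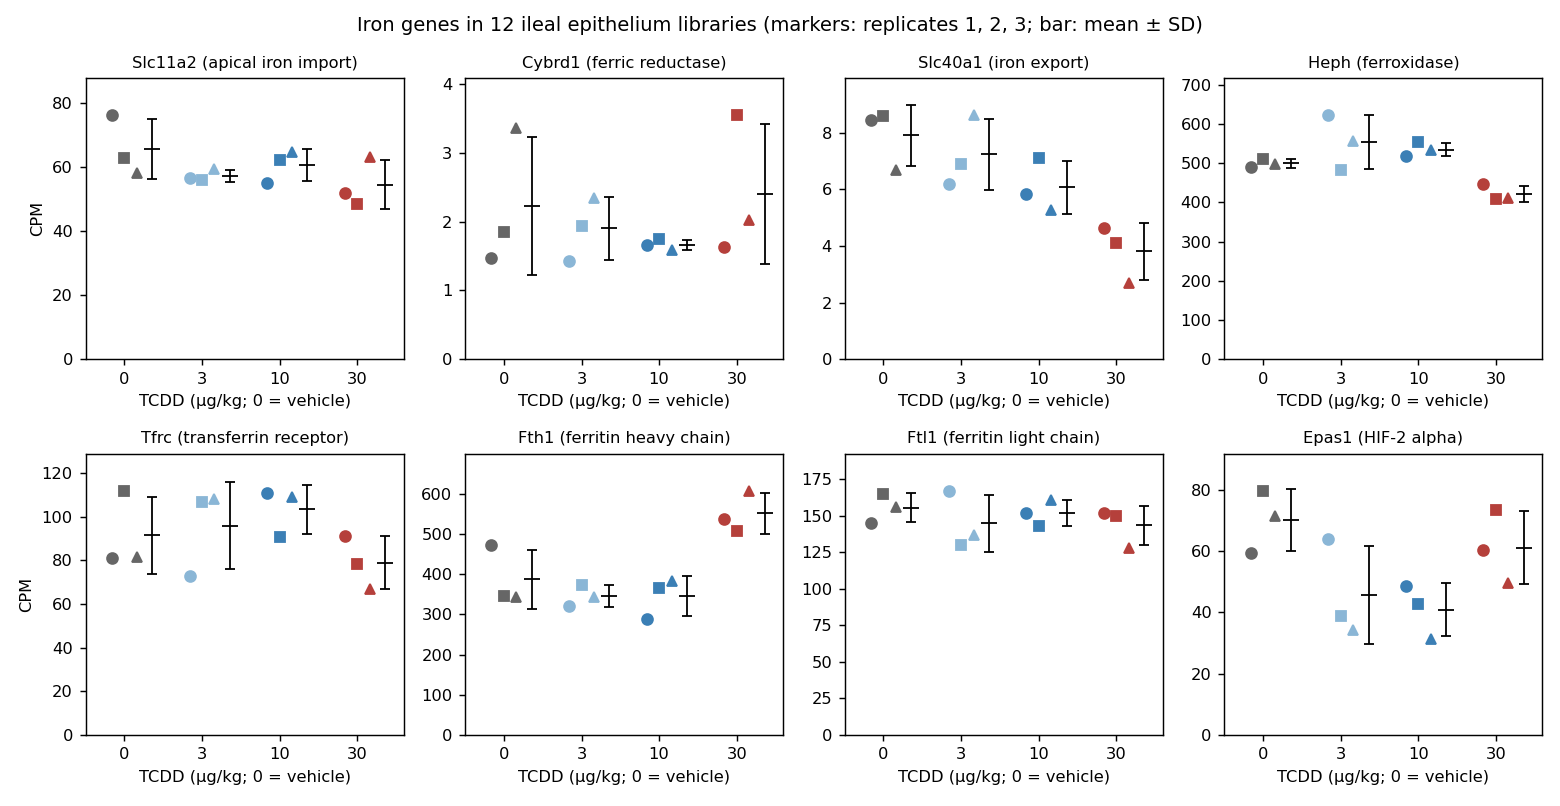
CPM of the 8 iron genes (y axes, from 0) against dose (x axes, µg/kg TCDD, 0 is vehicle). Circles, squares and triangles are replicates 1, 2 and 3 of each dose, and the bar is the mean ± SD (n = 3); at 30 µg/kg all Slc40a1 points lie below, and all Fth1 points above, the points of the other doses.

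Each dose was compared with vehicle in 1 edgeR quasi-likelihood fit of 15823 genes, in which called genes are those past 1.5-fold at an adjusted p under 0.05. None of the 8 genes was called at 3 µg/kg, where 0.228% of all genes were called, or at 10 µg/kg, where the share was 0.613%. At an unadjusted p under 0.05 the count was 1 of 8 at either dose, near the shares of all genes at that p, 11.4% and 15.9%. DESeq2 called 0 of the 8 genes at 3 µg/kg and 1, Epas1, at 10 µg/kg, and limma-voom called 0 at both. At 30 µg/kg 1 of 8 was called, Slc40a1, which fell, against 3.97% of all genes, and 4 of 8 had an unadjusted p under 0.05, against 21.6% of all genes. A slope over the 4 dose ranks also called 1 of 8, again Slc40a1, against 3.29% of all genes. The 3 comparisons with vehicle share the same vehicle libraries and are not independent. The 8 genes had a median log2 change of −0.14 at both lower doses and of −0.21 at the highest, beside medians over all genes of 0.002, −0.01 and −0.016 in dose order. A comparison of 30 with 10 µg/kg was added after the values had been seen, and it called 1 of 8, Fth1, which rose, against 2.77% of all genes.

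**Figure D2:**
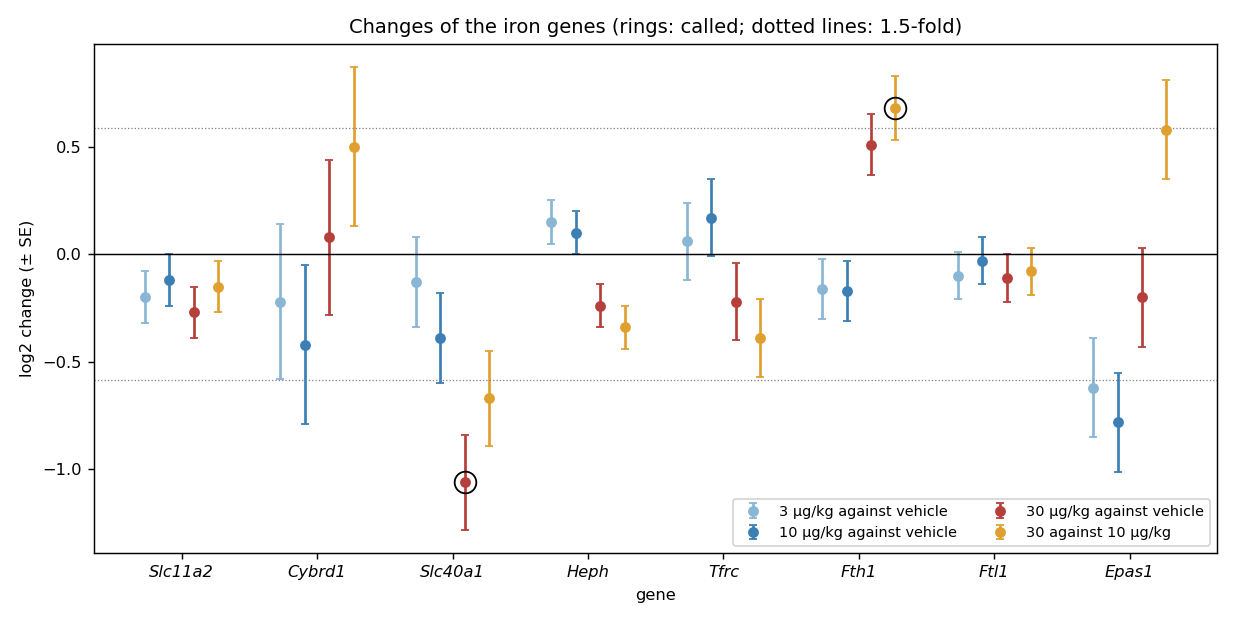
Log2 change ± SE (y axis) of each of the 8 genes (x axis) at 3, 10 and 30 µg/kg against vehicle and at 30 against 10 µg/kg. Rings mark the changes that were called, Slc40a1 at 30 µg/kg against vehicle and Fth1 at 30 against 10 µg/kg, and dotted lines mark a 1.5-fold change.

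Slc40a1 (ENSMUSG00000025993, chr1:45908068-45926523, minus strand), the only known cellular iron exporter, fell at the highest dose. In vehicle replicates 1 to 3 it measured 8.46, 8.61 and 6.67 CPM. At 3 µg/kg it measured 6.19, 6.89 and 8.63 CPM, and at 10 µg/kg 5.83, 7.11 and 5.27 CPM. At 30 µg/kg it measured 4.65, 4.09 and 2.68 CPM, from 91, 46 and 49 counts. Libraries of 3 and 10 µg/kg overlapped with vehicle, whereas all 3 libraries of 30 µg/kg lay below the other 9. The change at 30 µg/kg was −1.06 on the log2 scale, a 2.08-fold fall (SE 0.22; edgeR quasi-likelihood test with Benjamini-Hochberg adjustment, adjusted p 0.0134). It was −0.13 at 3 µg/kg (SE 0.21; adjusted p 0.857) and −0.39 at 10 µg/kg (SE 0.21; adjusted p 0.391), neither of which was called. The dose trend over the 4 groups fell by 1.01 on the log2 scale (SE 0.22; adjusted p 0.0199). Between 10 and 30 µg/kg the change was −0.67 (SE 0.22; adjusted p 0.106). The call at 30 µg/kg was lost without vehicle replicate 2 (−0.99, adjusted p 0.0588) and without replicate 3 of 30 µg/kg (−0.85, adjusted p 0.0515). The trend was no longer called without vehicle replicate 2 or without any 1 of the libraries of 30 µg/kg, where its adjusted p was between 0.0511 and 0.0597.

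Heph (ENSMUSG00000031209, chrX:96455359-96574485, plus strand) oxidises the iron that Slc40a1 releases so that transferrin can take it up. Its CPM in vehicle was 490, 511 and 497, at 3 µg/kg 623, 483 and 557, and at 10 µg/kg 519, 553 and 533. At 30 µg/kg it was 446, 409 and 412, below every library of the other doses. The separation at 30 µg/kg was small in size, with a log2 change of −0.24 against vehicle (SE 0.1; edgeR adjusted p 0.175) and of −0.34 against 10 µg/kg (SE 0.1; adjusted p 0.07). Neither was called, and both were under 1.5-fold. The log2 changes at 3 and 10 µg/kg were 0.15 (SE 0.1; adjusted p 0.589) and 0.1 (SE 0.1; adjusted p 0.653). Heph overlaps the gene Hsf3 on the opposite strand and 2 pseudogenes on its own, and the strand setting of the counting is not given in the sources used here.

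The apical import genes were not called at any dose. Slc11a2 (ENSMUSG00000023030, chr15:100387898-100425072, minus strand), which carries ferrous iron and protons together across the brush border, measured 76.2, 62.7 and 58 CPM in vehicle. It ranged from 55.8 to 59.3 CPM at 3 µg/kg, from 54.9 to 64.6 CPM at 10 µg/kg and from 48.4 to 63 CPM at 30 µg/kg, so every dose overlapped with vehicle. At the highest dose Slc11a2 had a log2 change of −0.27 (SE 0.12; adjusted p 0.226 in edgeR), and the dose trend was −0.22 (adjusted p 0.331). Slc11a2 overlaps the gene Gm5475 on the opposite strand. Cybrd1 (ENSMUSG00000027015, chr2:71117923-71142926, plus strand), the reductase that prepares ferric iron for Slc11a2, was the least abundant of the 8 genes and the most variable. Its vehicle libraries spanned 1.47 to 3.36 CPM and those of 30 µg/kg 1.63 to 3.55 CPM. The log2 changes of Cybrd1 were −0.22 (SE 0.36), −0.42 (SE 0.37) and 0.08 (SE 0.36) at 3, 10 and 30 µg/kg, with adjusted p values of 0.857, 0.599 and 0.934 in edgeR. These were the largest standard errors among the 8 genes. Without vehicle replicate 3 its changes at the lower doses were 0.19 and 0, and without replicate 2 of the highest dose its change there was −0.28.

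Tfrc (ENSMUSG00000022797, chr16:32608920-32632794, plus strand), whose transcript carries the 4 hairpins printed above in its 3′ UTR, measured 81.3, 112 and 81.5 CPM in vehicle. It measured 72.8, 107 and 108 CPM at 3 µg/kg, 111, 90.6 and 109 CPM at 10 µg/kg and 91.4, 78.6 and 67 CPM at 30 µg/kg. The groups overlapped throughout. The log2 change of Tfrc was 0.06 (SE 0.18; edgeR adjusted p 0.915), 0.17 (adjusted p 0.659) and −0.22 (adjusted p 0.512) at 3, 10 and 30 µg/kg. Proliferating crypt cells are known to carry much of this receptor. The proliferation list (7 genes) summed to 227 to 267 CPM in vehicle and 194 to 428 CPM at 3 µg/kg. It summed to 318 to 426 CPM at 10 µg/kg and 288 to 407 CPM at 30 µg/kg, both above vehicle without overlap. The part of this list in the Tfrc values was not tested.

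Of the ferritin subunits, the heavy chain was called in 1 comparison and the light chain in none. Fth1 (ENSMUSG00000024661, chr19:9980598-9985098, plus strand), the heavy chain, which holds the ferroxidase site of ferritin, measured 473, 345 and 343 CPM in vehicle. It measured 320, 374 and 344 CPM at 3 µg/kg and 288, 365 and 382 CPM at 10 µg/kg. At 30 µg/kg it measured 538, 508 and 608 CPM, above all 9 other libraries. Against vehicle Fth1 at 30 µg/kg had a log2 change of 0.51 (SE 0.14; adjusted p 0.0571 in edgeR) and was not called; against 10 µg/kg it was 0.68, a 1.6-fold rise (SE 0.15; adjusted p 0.02), which was called. At 3 and 10 µg/kg the changes against vehicle were −0.16 (SE 0.14; adjusted p 0.706) and −0.17 (SE 0.14; adjusted p 0.6). The vehicle value rests partly on replicate 1, the highest of the 3, without which the change at 30 µg/kg was 0.69 and was called (adjusted p 0.013). The rise from 10 to 30 µg/kg had an adjusted p between 0.0504 and 0.0765 when either replicate 1 or 2 of 10 µg/kg or any library of 30 µg/kg was left out, and of 0.0526 with the library index as a covariate.

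Ftl1 (ENSMUSG00000050708, chr7:45457944-45459884, minus strand), the light chain, which promotes the mineral core, measured 145, 165 and 156 CPM in vehicle and 152, 150 and 128 CPM at 30 µg/kg, in overlapping ranges. It spanned 130 to 167 CPM at 3 µg/kg and 143 to 161 CPM at 10 µg/kg. Its log2 changes at the 3 doses were −0.1 (adjusted p 0.763), −0.03 (adjusted p 0.914) and −0.11 (adjusted p 0.588; SE 0.11 at 3 and 30 µg/kg; edgeR). With each library's trend with exon length and GC content removed, the change of Ftl1 at 30 µg/kg was −0.34 (adjusted p 0.1). Both ferritin genes have near-identical copies in the genome, and reads that aligned to more than 1 place were set aside in the counting. Such reads made up 31.43% to 34.64% of reads at 0, 3 and 10 µg/kg and 36.25% to 38.79% at 30 µg/kg, so ferritin levels may be understated and unequally so; this was not tested. The copies themselves had few counts, at most 11 for Fth-ps2 and 12 for Ftl1-ps1 against 3998 to 11108 for Fth1 and 1690 to 3569 for Ftl1, and the Fthl17 genes had 0 in every library.

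Ratios of counts within a library do not depend on how libraries were scaled. The ratio of Fth1 to Ftl1 counts was 3.26, 2.09 and 2.2 in vehicle and 3.53, 3.38 and 4.75 at 30 µg/kg. It spanned 1.92 to 2.87 among libraries of 3 µg/kg and 1.89 to 2.55 among those of 10 µg/kg. The ratio of Fth1 to Slc40a1, a storage transcript against the export transcript, was 55.9, 40.1 and 51.3 in vehicle and 116, 124 and 227 at 30 µg/kg. In order of dose from vehicle, its means were 49.1 ± 8.13, 48.6 ± 7.73, 57.7 ± 12.8 and 156 ± 61.9 (SD, n = 3). The ratio of Slc11a2 to Slc40a1, the import transcript against the export transcript, was 8.32 ± 0.917 in vehicle and 15.5 ± 6.93 at 30 µg/kg, where replicate 3 reached 23.5. These ratios are of RNA and do not measure protein or iron. For all 3 ratios the libraries of 30 µg/kg lay above those of vehicle without overlap, which gives an exact two-sided permutation p of 0.1, the smallest that 3 libraries against 3 allow. The ratios were chosen after the members' values were known and are given as descriptions.

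**Figure D3:**
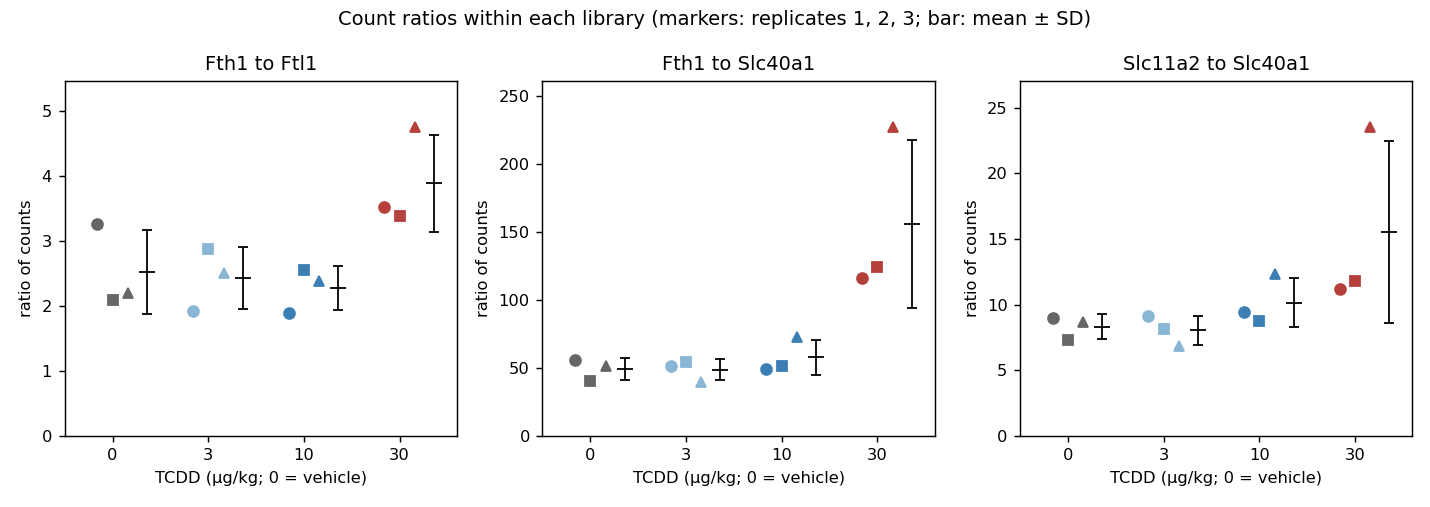
Ratios of counts within each library (y axes, from 0) for Fth1 to Ftl1, Fth1 to Slc40a1 and Slc11a2 to Slc40a1 against dose (x axes, µg/kg TCDD, 0 is vehicle). Circles, squares and triangles are replicates 1, 2 and 3, and the bar is the mean ± SD (n = 3); the Fth1 to Slc40a1 ratio is at most 72.5 in the 9 libraries of 0, 3 and 10 µg/kg and is at least 116 at 30 µg/kg.

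Epas1 (ENSMUSG00000024140, chr17:86753700-86833410, plus strand) was lowest at the middle doses. It measured 59.5, 79.7 and 71.3 CPM in vehicle and 48.5, 42.7 and 31.4 CPM at 10 µg/kg, without overlap. At 3 µg/kg it measured 64.1, 38.8 and 34.3 CPM, and at 30 µg/kg 60.5, 73.3 and 49.6 CPM, both overlapping with vehicle. The log2 change at 10 µg/kg was −0.78, 1.72-fold lower (SE 0.23; edgeR adjusted p 0.151), and at 3 µg/kg it was −0.62 (SE 0.23; adjusted p 0.344), neither of which was called. At 30 µg/kg it was −0.2 (adjusted p 0.663), and the difference between 30 and 10 µg/kg was 0.58 (SE 0.23; adjusted p 0.177). DESeq2 called the change of Epas1 at 10 µg/kg (−0.78, adjusted p 0.0494), as did edgeR without a filter on low counts (adjusted p 0.0298), and the change at 3 µg/kg was called without replicate 1 of that dose (−0.95, adjusted p 0.0449).

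The Epas1 and Fth1 values were also ordered by circadian clock genes within the groups, as were those of many other genes. A clock score was computed for each library as the mean standardised level of 7 clock output genes, among them Dbp and Per3, less that of Arntl, Npas2 and Clock. It was between 1.143 and 2.225 in 6 libraries (replicates 2 and 3 of vehicle, the first replicate of both lower doses, and replicates 1 and 2 of the highest) and between −2.335 and −0.735 in the other 6. In each of the 4 groups Epas1 was higher in the libraries whose score was positive than in those whose score was negative, and Fth1 was lower. Of all genes tested, 7.63% were higher and 6.78% lower in this way in all 4 groups. Tfrc was higher in 3 groups and lower in 1, Ftl1 was higher in 3, Slc11a2 was lower in 3, Heph was higher in 2 and lower in 1, and Cybrd1 and Slc40a1 were each higher in 1 and lower in 1. With the score as a covariate, Epas1 changed by −0.56 at 10 µg/kg (edgeR adjusted p 0.085) and by −0.47 at 3 µg/kg (adjusted p 0.186). In the same fit Fth1 changed by 0.52 at 30 µg/kg against vehicle, with an adjusted p of 0.000804 but under 1.5-fold, and by 0.83 against 10 µg/kg (adjusted p 5.64e-05). Slc40a1 changed there by −1.06 at 30 µg/kg (adjusted p 0.0074).

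**Figure D4:**
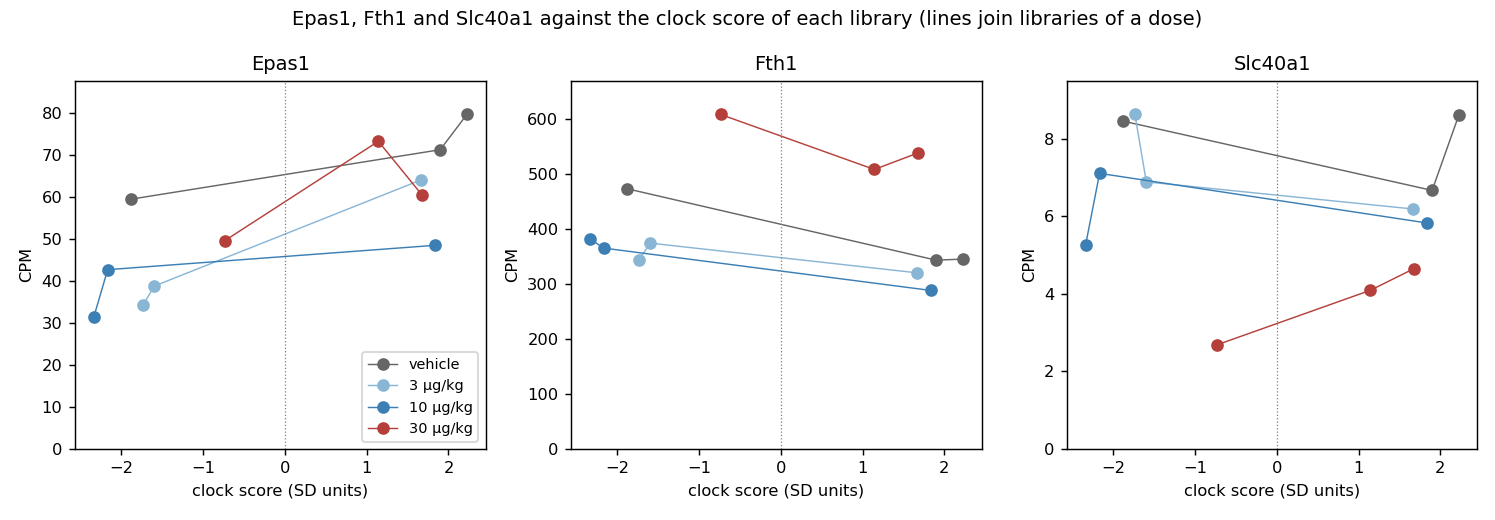
CPM of Epas1, Fth1 and Slc40a1 (y axes, from 0) against the clock score of each library (x axes, in SD units of log2 CPM), with lines joining the 3 libraries of a dose. Within each dose Epas1 is higher, and Fth1 lower, in the libraries to the right of 0 than in those to the left, and the Slc40a1 points of 30 µg/kg lie below all others on both sides.

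Scrapings hold other cells than enterocytes, and in bulk RNA fewer cells of a type and less RNA per cell cannot be told apart. Macrophages recycle iron and are known to express Slc40a1 and Fth1. The 7 macrophage markers summed to 48.2 to 61.1 CPM in vehicle, 35.2 to 44.4 at 3 µg/kg, 35 to 56.1 at 10 µg/kg and 74.9 to 81.3 at 30 µg/kg, with none at or under 3 counts in every library. They were thus highest where Slc40a1 was lowest and Fth1 highest; 0 of the 6 tested was called against vehicle at any dose by edgeR, with 2, 3 and 4 at an unadjusted p under 0.05. DESeq2 called 1 of them (C1qa, lower at 3 µg/kg) and limma-voom 0. Between 10 and 30 µg/kg, where Fth1 was called, edgeR also called 2 of the 6 higher, Csf1r by 0.84 (SE 0.16; adjusted p 0.0109) and C1qa by 1.08 (SE 0.18; adjusted p 0.00496) on the log2 scale. Endothelial cells are known to express Epas1, and the 6 endothelial markers summed to 18.4 to 35.9 CPM in vehicle, 17.4 to 23.6 at 3 µg/kg, 12.2 to 23.5 at 10 µg/kg and 27.8 to 29.3 at 30 µg/kg. Like Epas1 they were lower at 10 than at 30 µg/kg without overlap, but their vehicle libraries overlapped with every dose. Smooth muscle markers (5 genes) summed to 47.1 to 166 CPM in vehicle, 13.3 to 72.9 at 3 µg/kg, 18.6 to 29.8 at 10 µg/kg and 29.7 to 105 at 30 µg/kg. Fibroblast markers (5 genes) summed to 72 to 137 CPM in vehicle, 39.6 to 103 at 3 µg/kg, 26.8 to 70.3 at 10 µg/kg and 60.5 to 91 at 30 µg/kg. Both lists, like Epas1, lay below vehicle without overlap at 10 µg/kg, with 5 of 5 and 3 of 5 genes at an unadjusted p under 0.05; edgeR called 0 of either, and DESeq2 called Tagln and Dcn lower. The part of these 4 cell types in the values of Slc40a1, Fth1 and Epas1 was not tested. Plasma and B cell markers (5 genes) summed to 107 to 293 CPM in vehicle and, overlapping, 105 to 127 at 30 µg/kg. All 5 had negative log2 changes at each dose, with medians of −0.85, −1.46 and −1.88 in dose order. Of these, edgeR called 0 against vehicle, with 4 at an unadjusted p under 0.05 at 30 µg/kg. DESeq2 called Mzb1 lower at 10 µg/kg and Cd79b and Ms4a1 lower at 30 µg/kg. Their part in the members' values was not tested either. The Paneth list (5 genes) summed to 633 to 956 CPM in vehicle and to 1920 to 2600 CPM at 30 µg/kg, with 4 of 5 genes called higher, and 3 of 6 goblet markers were called higher; their part in the members' values was not tested.

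The wider iron pathway was described with 8 further lists of 64 genes, of which 57 were tested. At 3 and at 10 µg/kg edgeR called 0 of the 57, with 4 and 8 at an unadjusted p under 0.05, beside the 11.4% and 15.9% of all genes given above. DESeq2 called 0 of them at 3 µg/kg and 1 at 10 µg/kg (Slc2a1, a glucose transporter and HIF target, higher; named after its value was seen), and limma-voom called 0 at both. At 30 µg/kg 12 of 57 had such a p and 2 were called, beside 21.6% and 3.97% of all genes, so the lists as a whole stood near the background. Both genes called were higher, and both code for enzymes of haem synthesis. Alas1, the rate-limiting first enzyme, measured 113, 102 and 119 CPM in vehicle, 99 to 114 CPM at 3 µg/kg and 123, 135 and 169 CPM at 10 µg/kg. It reached 198, 178 and 186 CPM at 30 µg/kg, above all other libraries, a change of 0.75 on the log2 scale (SE 0.12; edgeR adjusted p 0.00223). Cpox, coproporphyrinogen oxidase, measured 49.5, 37 and 37.9 CPM in vehicle and 68.3, 79.8 and 70.2 CPM at 30 µg/kg, without overlap, a log2 change of 0.81 (SE 0.12; adjusted p 0.00145). Both were also called in the dose trend, at 0.8 for Alas1 (adjusted p 0.00437) and 0.84 for Cpox (adjusted p 0.00112), and by DESeq2 and limma-voom at 30 µg/kg. The median log2 change at 30 µg/kg of the 13 genes of mitochondrial iron and haem synthesis was 0.1, and the other genes of that list were not called.

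No gene of the other 7 lists was called at 30 µg/kg by edgeR, DESeq2 or limma-voom. In the added comparison of 30 with 10 µg/kg, 14 of 57 had an unadjusted p under 0.05, against 21% of all genes, and edgeR and DESeq2 called 1, Lcn2, which codes for a siderophore-binding protein. Lcn2 measured 0.576, 0.29 and 0.857 CPM at 10 µg/kg, from only 8, 4 and 14 counts. At 30 µg/kg it measured 2.09, 2.93 and 1.1 CPM, from 41, 33 and 20 counts, and limma-voom did not call it. The difference was 1.77 on the log2 scale (SE 0.45; adjusted p 0.0454 in edgeR). Its vehicle libraries, at 0.903 to 1.16 CPM, overlapped with those of 30 µg/kg. The 9 genes of haem iron had a median log2 change of 0.11, with Slc46a1, a haem and folate carrier of the brush border, at −0.02 (adjusted p 0.987) and the haem-degrading enzyme Hmox1 at 0.11 (SE 0.5, adjusted p 0.93). Hmox1 had only 3 to 24 counts per library, so its change was poorly measured. The 7 tested genes of other metal import and reduction had a median of 0.33, the 3 tested of iron chaperones and ferritin turnover 0.16, and the 4 tested of 9 in the transferrin cycle and systemic regulation −0.32. Ncoa4, the receptor that delivers ferritin to the lysosome, was at −0.17 (adjusted p 0.7). The RNA of the regulators of iron genes showed no called change either, which does not measure the level or activity of their proteins. The iron regulatory proteins Aco1 and Ireb2, which bind the hairpins, were at −0.11 (adjusted p 0.735) and −0.26 (adjusted p 0.248), and Fbxl5, the iron sensor that removes Ireb2, was at −0.1 (adjusted p 0.71). Of the partners and regulators of HIF (8 genes, median −0.06), Hif1a was at −0.07 (adjusted p 0.886), Arnt, which pairs with both Epas1 and the AhR, at −0.06 (adjusted p 0.728), and Vhl, which marks HIF proteins for degradation, at −0.32 (adjusted p 0.184), with its 3 libraries of 30 µg/kg below those of vehicle. The 10 HIF target genes had a median of 0.15.

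**Figure D5:**
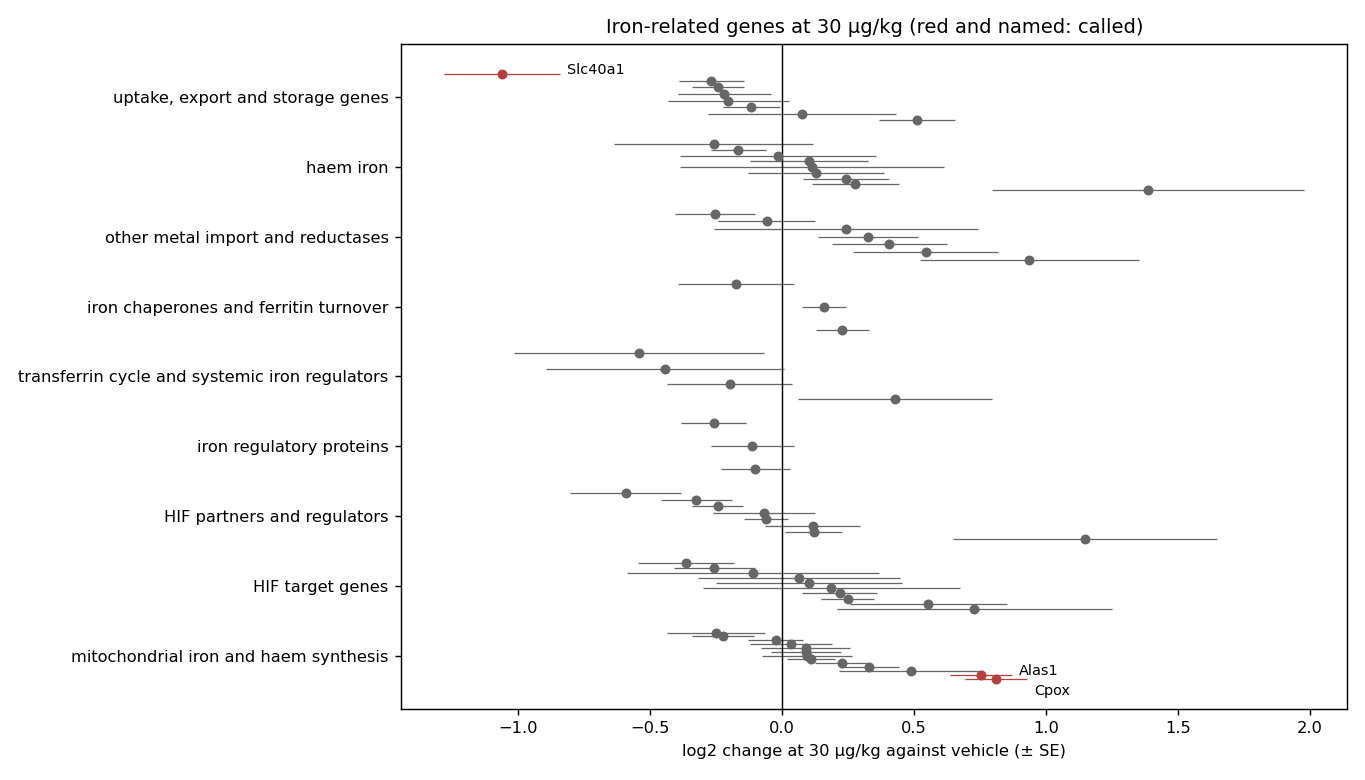
Log2 change at 30 µg/kg against vehicle ± SE (x axis) of each tested gene of the 8 uptake, export and storage genes and of the 8 further iron lists (y axis, 1 row per list). Red points with names are the genes called, Slc40a1 lower and Alas1 and Cpox higher.

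The genes whose log2 CPM was most like that of Slc40a1 over the 12 libraries were Desi2 (Pearson r 0.966), Gm830 (0.937) and Sh3tc1 (0.937), given as a description because the libraries share doses and the 3 were the highest among all genes tested. Desi2, at 25.4 to 41.2 CPM, had a log2 change of −0.48 at 30 µg/kg. Gm830, at 0 to 1.3 CPM, had one of −2.68, and Sh3tc1, at 4.87 to 12.7 CPM, one of −0.78. None of them belongs to the iron lists used here.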

How the data were processed

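Per the labels, total RNA from epithelial scrapings was made into libraries for sequencing. Each deposited file holds the counts of 1 library by Ensembl gene, raw and not normalised. The submitters' processing notes name FastQC 0.11.3, Trimmomatic 0.33, TopHat2 2.1.0, SAMtools 1.2.0, HTSeq 0.6.1, DESeq and build GRCm38. The annotation release and strand setting are not given in the sources used here. Reads with no gene, several genes or several alignments stand in separate entries (60.29% to 64.57% of reads), and these entered neither library sizes nor tests.

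The 8 members, the wider lists and the tests were chosen with earlier results of these data known. Always named were the 8 genes and Slc46a1, Hmox1, Aco1, Ireb2, Fbxl5, Ncoa4, Hif1a, Arnt and Vhl; other genes of the iron lists were named when called, and of the marker and AhR lists only those that bear on a result here, chosen after their values were seen; also named were the 3 genes most like a called member by Pearson r. Of 46078 genes, 45229 matched GENCODE M21, and 15823 passed filterByExpr. edgeR 4.0.16 in R 4.3.3 fitted 1 quasi-likelihood model with 4 groups and TMM factors; adjustment followed Benjamini and Hochberg over all 15823 genes. Standard errors come from the F statistic. The dose trend is the slope over dose rank, given over the whole range. P-values of the group comparisons set a change against the spread between libraries of the same dose. This spread was estimated over the 4 groups together, with information shared across genes. The trend came from a separate fit, whose spread also holds departures of the doses from a line. The submitters describe the 3 libraries of a dose as biological replicates. The code was tested on simulated data. The alternatives were other scalings, other filters, DESeq2 1.42.0, limma-voom (3.58.1), library index, clock score, length and GC offsets, the compared groups alone, and each library left out. The erythroid marker list is not reported here.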

Additional observations from a re-analysis of the deposited data

How the results depend on the processing

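The fall of Slc40a1 at 30 µg/kg was called in 15 of 17 alternatives, with log2 changes from −1.25 to −0.85, and its trend in 18 of 22. The members called against vehicle numbered 0 to 1 at 3 µg/kg and 0 to 2 at 30 µg/kg when 1 library was left out, 0 to 2 in the trend, and 0 to 1 at 30 against 10 µg/kg. The second gene at 30 µg/kg and in the trend was Fth1, without vehicle replicate 1. At 10 µg/kg, 1 member (Epas1) was called with no low-count filter and with DESeq2. The library index as a covariate left 0 members called at 30 against 10 µg/kg. No paired analysis was possible because the labels give no replicate numbers that join libraries of different doses; the library index, which recurs once in each dose, was fitted as the covariate named above.

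All genes called at 3 µg/kg numbered 71 with no filter, 23 with at least 10 counts in every library, 84 with DESeq2, 18 with the library index and 6 with the compared groups alone. At 10 µg/kg they numbered 215 with no filter, 262 with DESeq2 and 59 with the library index, and 291 at 30 against 10 µg/kg with length and GC offsets. Leaving out 1 library gave 19 to 162 at 3 µg/kg (162 without its replicate 1), 45 to 59 at 10 µg/kg, 188 to 348 at 30 against 10 µg/kg and 297 to 640 in the trend.

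Changes that turned sign were small and uncalled throughout. Tfrc at 3 µg/kg was −0.06 with length and GC offsets and −0.03 to 0.22 with 1 library left out. Ftl1 at 10 µg/kg was 0.05 with the clock score, 0.02 with length and GC offsets, and −0.07 to 0.02 with 1 library left out. The Cybrd1 trend was −0.03 with limma-voom. With 1 library left out, Cybrd1 spanned −0.45 to 0.19 at 3 µg/kg, −0.63 to 0 at 10 µg/kg, −0.28 to 0.5 at 30 µg/kg and −0.35 to 0.42 in the trend; at 10 µg/kg Slc11a2 spanned −0.19 to 0.01 and Fth1 −0.24 to 0.01. The causes of these changes were not tested. Cybrd1 had 19 to 64 counts per library, the fewest of the 8 genes.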
